A study of Mus musculus with 24 samples.

Results

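The genes Acta1, Myh6, Myh7, Myh7b and Nppb, which mark the fetal programme of heart muscle, were followed across strain, diet and sex in mouse heart RNA. They were chosen by gene symbol from the annotation deposited with the counts, were 5 of the 20961 genes listed there, each matched 1 row, and all 5 were among the 17203 genes that passed the filter on low counts and entered the tests. Whole hearts had been taken at 15 weeks of age from untreated, genotypically wild-type C57BL/6J, CAST/EiJ and NZO/HlLtJ mice of both sexes, which had been on 1 of 2 diets since 6 weeks of age. The diets are labelled 10% fat with fiber, which the submitters call the control, and 44% fat with fiber, which they call high in fat and sugar. C57BL/6J is a standard laboratory strain, CAST/EiJ was bred from wild-caught mice, and NZO/HlLtJ is an inbred strain prone to obesity and diabetes. Each of the 12 combinations of strain, sex and diet held 2 libraries, 24 in all. No label says that the 2 libraries of a combination are from different mice, so a p-value here reflects the spread between libraries, part of which may be technical.

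The ventricle of an adult mouse runs on alpha myosin heavy chain, the fast motor encoded by Myh6, and on cardiac alpha actin, encoded by Actc1. The heart before birth uses more of beta myosin heavy chain, the slower motor encoded by Myh7, and of skeletal alpha actin, encoded by Acta1. After birth thyroid hormone turns Myh6 on and Myh7 off, and under pressure or volume load Myh7, Acta1 and the natriuretic peptide genes Nppa and Nppb can rise again, which is why they are read together as a fetal or stress programme. Myh7b encodes another, slow-type myosin heavy chain.

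The myosin genes also host microRNAs in their introns. Myh6 and Myh7 lie in tandem on chromosome 14 and Myh7b on chromosome 2, and each carries on its own strand a microRNA of the family that is known to regulate slow and fast myosin genes. The mature sequences are shown because they make the kinship of the 3 host genes visible, with the seed, bases 2 to 8 from the 5′ end, in capitals (RefSeq, GRCm38.p6).
mmu-miR-208a-3p, in Myh6: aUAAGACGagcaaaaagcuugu
mmu-miR-208b-3p, in Myh7: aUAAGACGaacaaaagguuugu
mmu-miR-499-5p, in Myh7b: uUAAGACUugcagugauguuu
The microRNAs of Myh6 and Myh7 share the seed UAAGACG, and that of Myh7b has UAAGACU. The libraries were made from polyadenylated RNA and the mature microRNAs were not measured, so all values below are those of the host genes.

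The 2 genes with the widest strain differences were Acta1 and Myh7, and the 250 bases before their annotated starts are printed to show what they share and do not share. Capitals mark the motifs searched on both strands. In Acta1 (chr8:123894776-123895025, minus strand, GRCm38.p6, RefSeq) they mark, from 5′ to 3′, a CArG box, which serum response factor binds, an M-CAT element, which TEAD factors bind, and a TATA box. In Myh7 (chr14:54994627-54994876, minus strand, the upstream one of 2 listed starts) they mark an M-CAT element in reverse orientation.
Acta1: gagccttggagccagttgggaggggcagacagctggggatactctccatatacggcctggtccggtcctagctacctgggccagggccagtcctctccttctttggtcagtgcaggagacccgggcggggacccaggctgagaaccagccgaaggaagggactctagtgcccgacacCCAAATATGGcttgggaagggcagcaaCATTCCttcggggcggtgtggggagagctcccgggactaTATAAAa
Myh7: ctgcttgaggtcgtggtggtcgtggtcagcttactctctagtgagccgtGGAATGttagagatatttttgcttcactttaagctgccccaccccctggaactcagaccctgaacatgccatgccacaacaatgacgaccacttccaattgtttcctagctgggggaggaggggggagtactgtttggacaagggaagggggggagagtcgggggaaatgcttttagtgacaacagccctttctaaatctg
The M-CAT letters CATTCC, read on either strand, were present in the window of Acta1, Myh6, Myh7 and Nppb and not in that of Myh7b, which is 4 of 5 genes, against 12.6% of 32851 promoters of the same length. With the other listed start of Myh7, whose window holds none of the motifs searched, it is 3 of 5. A CArG box was found only in Acta1 of the 5 (1.47% of promoters), and the GATA letters AGATAA in Myh7b and Nppb (9.99%). The TATA letters TATAAA were found in Acta1 and Nppb (12.4%), and the MEF2 motif in none of the 5 (0.508%). A match describes these reference letters and is not a bound site, and the reference is that of C57BL/6J, so the letters of the other strains are not shown.

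Levels are given as CPM, that is counts divided by the scaled library total and multiplied by 1000000, and as CPM per kilobase of exon where genes are compared with each other. Per kilobase, Myh6 stood far above the other members in every strain, with a mean of 4628 ± 325 CPM per kb (SD, n = 24). Acta1 came next in each strain, at 102 ± 34.1 CPM per kb in C57BL/6J, 160.4 ± 51.95 in CAST/EiJ and 1162 ± 460 in NZO/HlLtJ (SD, n = 8). In C57BL/6J the order went on with Nppb (99.3 ± 25.9), Myh7 (17.5 ± 7.80) and Myh7b (15.1 ± 1.36 CPM per kb). There Acta1 and Nppb overlapped over the libraries, as did Myh7 and Myh7b. In CAST/EiJ Myh7 followed Acta1 at 111 ± 25.04 CPM per kb, with Nppb at 87.2 ± 29.9 overlapping it and Myh7b lowest at 23.4 ± 3.11. In NZO/HlLtJ the order was again Nppb (66.1 ± 23.2), Myh7 (21.1 ± 10.3) and Myh7b (19.0 ± 2.52 CPM per kb).

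The members did not share a strain pattern. Acta1 was high in NZO/HlLtJ and Myh7 was high in CAST/EiJ, Myh7b was highest in CAST/EiJ, and the libraries of the 3 strains overlapped in Myh6. Nppb had its lowest mean in NZO/HlLtJ, but its libraries overlapped between the 3 strains and no strain difference passed the edgeR test used below. The plot of CPM by strain shows these separate patterns.

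**Figure D1:**
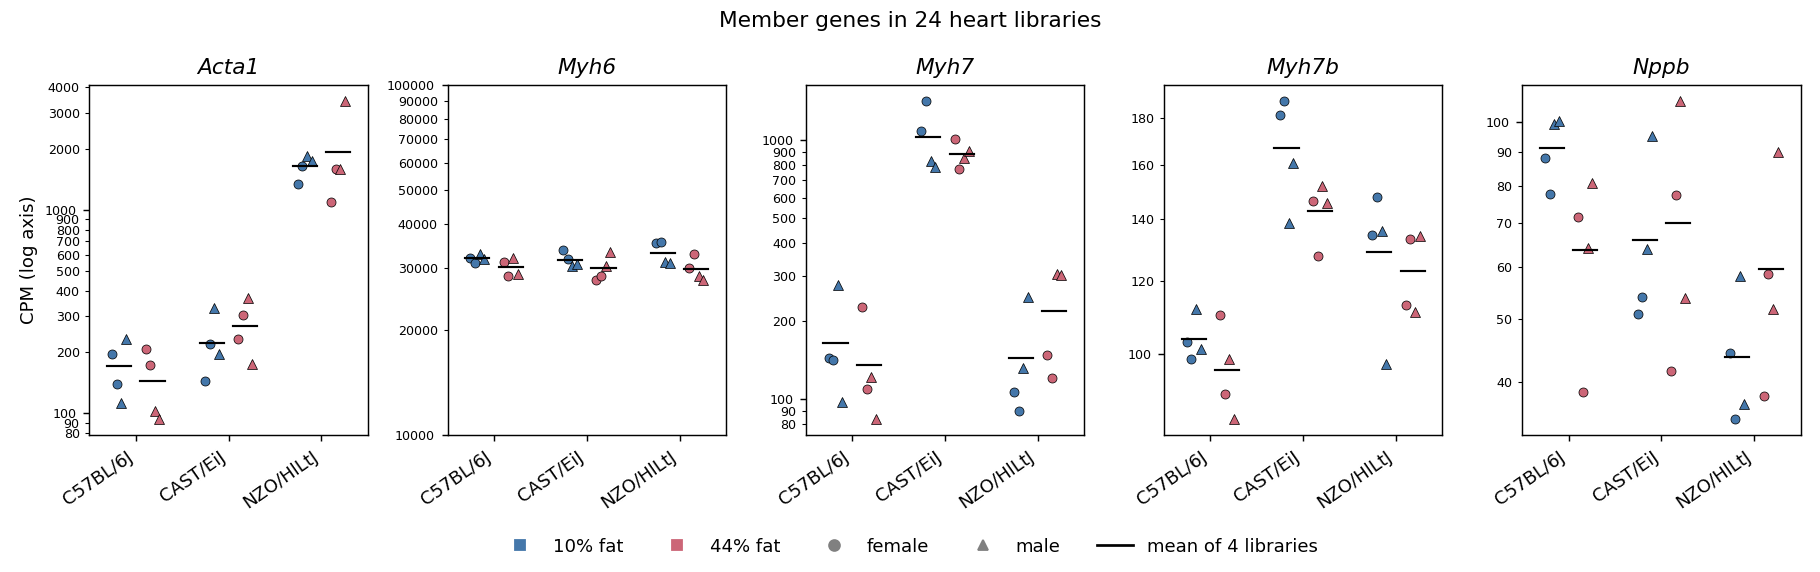
CPM (log axes, each panel with its own scale) of the 5 genes in each of the 24 libraries, by strain, diet (colour) and sex (shape), with a bar at the mean of the 4 libraries of a strain and diet. Acta1 in NZO/HlLtJ starts at 1094 CPM, above the highest library of the other strains, and Myh7 in CAST/EiJ starts at 772 CPM. With the sexes pooled, both diets overlap in every panel and strain.

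Acta1 (ENSMUSG00000031972, chr8:123891767-123894736, minus strand, GRCm38) encodes skeletal alpha actin, the sarcomeric actin of skeletal muscle and of the fetal heart. In C57BL/6J its level ran from 93.7 through a median of 156 to 233 CPM over 8 libraries. In CAST/EiJ the lowest, median and highest libraries were at 144.5, 226 and 370.2 CPM. In NZO/HlLtJ they were at 1094, 1617 and 3433 CPM, so that the NZO/HlLtJ libraries did not overlap those of either other strain, while those of CAST/EiJ and C57BL/6J did overlap.

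Acta1 was 11.4-fold higher in NZO/HlLtJ than in C57BL/6J (log2 change 3.51, SE 0.25, adjusted p = 2.04e-07, edgeR quasi-likelihood test with Benjamini-Hochberg adjustment over all genes tested). Against CAST/EiJ it was 7.13-fold higher (2.83, SE 0.25, adjusted p = 4.17e-07). The separation held in each sex and diet, with log2 differences of means against C57BL/6J of 3.17 in females and 3.47 in males on 10% fat, and of 2.81 in females and 4.57 in males on 44% fat. The last of these holds the highest library of all, the second of the NZO/HlLtJ males on 44% fat at 3433 CPM, whose partner was at 1593 CPM. Leaving out any 1 of the 24 libraries kept the difference from C57BL/6J between 3.34 and 3.66.

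Between CAST/EiJ and C57BL/6J the Acta1 difference was small (1.60-fold, log2 change 0.67, SE 0.23, edgeR adjusted p = 0.0241), and its call depended on single libraries. Leaving out any of 7 libraries took the adjusted p above 0.05, while the log2 change stayed between 0.51 and 0.64 in these fits and between 0.51 and 0.83 over all 24 omissions. Without the first library of the C57BL/6J males on 10% fat the edgeR adjusted p was 0.0563, without the second of the C57BL/6J females on 10% fat 0.0573, and without the second of the C57BL/6J females on 44% fat 0.0535. On the CAST/EiJ side it was 0.0636 without the first male on 10% fat, 0.0722 without the first male on 44% fat, 0.0598 without the second female on 10% fat, and 0.0535 without the second female on 44% fat.

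Actc1, cardiac alpha actin, the adult counterpart of Acta1, was at 7248 ± 596 CPM in C57BL/6J, 6996 ± 1170 in CAST/EiJ and 7607 ± 648 in NZO/HlLtJ (SD, n = 8), and was called in no strain difference (log2 change 0.07 for NZO/HlLtJ against C57BL/6J, edgeR adjusted p = 0.541). Per kilobase, Acta1 made up 2.22% ± 0.657 of the sum of Acta1 and Actc1 in C57BL/6J, 3.59% ± 0.971 in CAST/EiJ and 19.4% ± 5.52 in NZO/HlLtJ (SD, n = 8). In the NZO/HlLtJ hearts this share ran from 14.6% to 32.2%, above every library of the other strains. The longest stretch of identical bases between Acta1 and Actc1 transcripts was 29 bases, shorter than the 100-base reads, and all Acta1 counts were whole numbers.

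Myh7 (ENSMUSG00000053093, chr14:54970688-54994634, minus strand) encodes beta myosin heavy chain. Over 8 libraries of each strain its lowest, median and highest levels were 83.6, 132 and 276 CPM in C57BL/6J. They were 90.1, 139.9 and 305 CPM in NZO/HlLtJ. In CAST/EiJ they were 772, 882 and 1422 CPM, so that every CAST/EiJ library lay above every library of the other strains.

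Myh7 was 6.45-fold higher in CAST/EiJ than in C57BL/6J (log2 change 2.69, SE 0.23, edgeR adjusted p = 4.60e-07) and 5.69-fold higher than in NZO/HlLtJ (log2 change of NZO/HlLtJ against CAST/EiJ -2.51, SE 0.23, adjusted p = 7.98e-07). Within each sex and diet the 2 CAST/EiJ libraries lay above the 2 of C57BL/6J, with log2 differences of means from 2.30 in males on 10% fat to 3.13 in males on 44% fat. NZO/HlLtJ and C57BL/6J overlapped in Myh7 (log2 change 0.18, SE 0.22, edgeR adjusted p = 0.58). The strata varied around that average. On 10% fat both NZO/HlLtJ females (107 and 90.1 CPM) lay below both C57BL/6J females (145 and 142 CPM). On 44% fat both NZO/HlLtJ males (305 and 301.5 CPM) lay above both C57BL/6J males (121.5 and 83.6 CPM). With 2 libraries per stratum this is a description only. Neither the sex effect (difference 1.23, SE 0.45) nor the diet effect (0.88, SE 0.44) was called by edgeR as different between these strains.

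Myh6 (ENSMUSG00000040752, chr14:54941981-54966927, minus strand) encodes alpha myosin heavy chain and took from 2.73% to 3.61% of all counts of a library. Its lowest, median and highest levels were 28520, 31580 and 32810 CPM in C57BL/6J. They were 27660, 30540 and 33760 CPM in CAST/EiJ and 27730, 31030 and 35500 CPM in NZO/HlLtJ. Over all libraries the strains overlapped, and the log2 changes were 0.01 for NZO/HlLtJ against C57BL/6J, -0.01 for CAST/EiJ against C57BL/6J and 0.03 for NZO/HlLtJ against CAST/EiJ (SE 0.03 each, edgeR adjusted p = 0.773, 0.732 and 0.469). The CAST/EiJ direction turned to 0.06 when library totals were used without a scaling factor. The strata, of 2 libraries per strain each, varied around the NZO/HlLtJ averages. Against C57BL/6J, NZO/HlLtJ females were higher, by 0.16 on 10% fat and 0.07 on 44% fat (log2 difference of means). NZO/HlLtJ males were lower, at -0.06 and -0.12, and only the females on 44% fat overlapped. Against CAST/EiJ no sex and diet stratum overlapped, the differences running from -0.18 in males on 44% fat to 0.16 in females on 44% fat.

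Of the RNA of both cardiac myosins, per kilobase, Myh7 made up 0.373% ± 0.154 in C57BL/6J, 2.37% ± 0.485 in CAST/EiJ and 0.466% ± 0.262 in NZO/HlLtJ (SD, n = 8). The lowest CAST/EiJ library was at 1.97% and the highest library of the other strains at 0.841%. Myh6 thus remained the main myosin in all 24 libraries, with Myh7 at most 3.38%. These levels carry an uncertainty of read assignment, since 11.2% of the 100-base windows of the Myh7 transcript are identical in Myh6, in stretches of up to 245 bases, and the counts of both genes were fractional in all 24 libraries. Reads of the abundant Myh6 could have been divided in part to Myh7, and which counting program was used is not given in the sources used here. GRCm38, the genome that the submitters name, is that of C57BL/6J. Whether sequence differences of CAST/EiJ and NZO/HlLtJ from it changed the counts of any member was not tested. The shares also depend on the length used, that of all annotated exons of a gene joined. It was 8616 bases for Myh7, whose longest coding transcript has 6230, and 6726 for Myh6, whose longest has 6113. With transcript lengths the Myh7 share would be higher in every library.

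**Figure D2:**
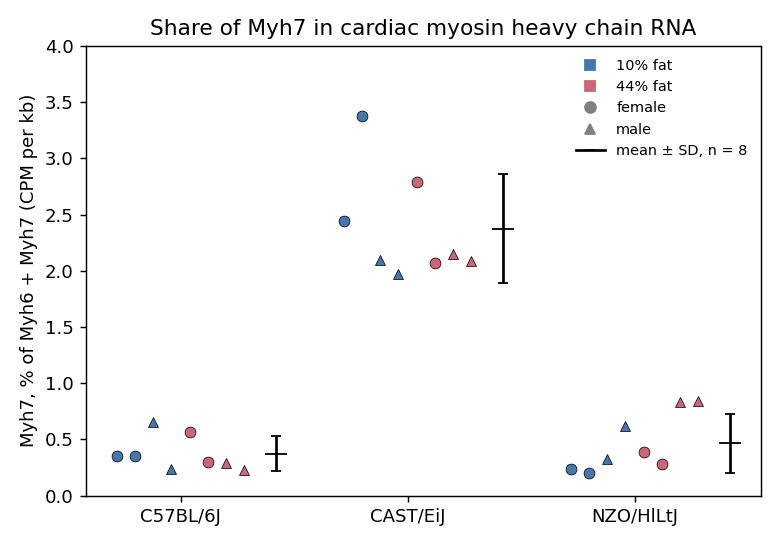
Myh7 as a percentage of Myh6 plus Myh7 (CPM per kilobase of exon) in each library, by strain, diet (colour) and sex (shape), with mean ± SD over 8 libraries at the right of each strain. The CAST/EiJ libraries lie between 1.97% and 3.38%, and the highest library of the other 2 strains is an NZO/HlLtJ male at 0.841%.

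Mhrt, a long noncoding RNA transcribed against Myh7 and known from the adult heart, ran opposite to Myh7 in CAST/EiJ. It was at 28.8 ± 3.80 CPM in C57BL/6J, 15.6 ± 2.40 in CAST/EiJ and 20.99 ± 4.84 in NZO/HlLtJ (SD, n = 8). It was lower in CAST/EiJ than in C57BL/6J (log2 change -0.89, SE 0.11, edgeR adjusted p = 6.69e-06), and also lower in NZO/HlLtJ, again against C57BL/6J (-0.48, SE 0.11, adjusted p = 0.00352), where Myh7 was not called. Mhrt overlaps Myh7 on the other strand and it is not given whether the counting used strand, so reads from the 2 genes may not have been told apart.

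Myh7b (ENSMUSG00000074652, chr2:155611212-155634307, plus strand) encodes the slow-type myosin that hosts miR-499. Its lowest, median and highest levels were 85.1, 100.2 and 112 CPM in C57BL/6J. They were 97.7, 134 and 148 CPM in NZO/HlLtJ. In CAST/EiJ they were 128, 149 and 188 CPM, above all C57BL/6J libraries and overlapping those of NZO/HlLtJ.

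Myh7b was 1.54-fold higher in CAST/EiJ than in C57BL/6J (log2 change 0.63, SE 0.07, edgeR adjusted p = 1.29e-06), without overlap in any sex and diet. In NZO/HlLtJ it was 1.26-fold higher than in C57BL/6J (0.33, SE 0.07, adjusted p = 0.0018) and lower than in CAST/EiJ (-0.30, SE 0.07, adjusted p = 0.00207). Thus it was called in all 3 strain pairs with changes well under those of Acta1 and Myh7. No 100-base window of Myh7b is shared with Myh7, and its counts were whole. Trpc4ap overlaps it, and that gene was lower in CAST/EiJ than in C57BL/6J (log2 change -0.23), opposite to Myh7b.

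Nppb (ENSMUSG00000029019, chr4:147985788-147987205, plus strand) encodes B-type natriuretic peptide, the hormone that the stretched heart releases. Its lowest, median and highest levels were 38.6, 79.2 and 100.4 CPM in C57BL/6J. They were 41.5, 59.0 and 108 CPM in CAST/EiJ and 35.1, 48.0 and 90.0 CPM in NZO/HlLtJ. The libraries of the 3 strains overlapped over both diets and sexes.

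The Nppb difference between NZO/HlLtJ and C57BL/6J was -0.59 on the log2 scale (SE 0.22) and just missed the threshold with edgeR (adjusted p = 0.0505). It passed with DESeq2 (-0.59, adjusted p = 0.0199), with limma-voom (-0.61, adjusted p = 0.0477), with upper-quartile scaling (-0.60, adjusted p = 0.0429) and with only the 2 strains in the fit (-0.59, adjusted p = 0.0405). The 4 C57BL/6J libraries on 10% fat (88.1, 77.7, 99.5 and 100.4 CPM) all lay above the 4 of NZO/HlLtJ (44.3, 35.1, 58.1 and 37.0 CPM). On 44% fat the 2 strains overlapped, at 71.5, 38.6, 64.1 and 80.7 CPM against 38.1, 58.5, 51.7 and 90.0 CPM. It did not pass under the other 4 settings. When 1 library at a time was left out, it passed in 8 of 24 cases, the log2 change ran from -0.70 to -0.46 and the adjusted p reached 0.134, without the first C57BL/6J female on 44% fat. Where it passed, the edgeR adjusted p was 0.031 without the second C57BL/6J female on 44% fat. For NZO/HlLtJ it was 0.0321 without the second male on 44% fat, 0.0459 without the second female on 44% fat and 0.0431 without the first male on 10% fat. For CAST/EiJ, which enters only through the shared fit, it was 0.044 without either female on 44% fat and 0.0392 without either male on 44% fat. CAST/EiJ differed by -0.18 from C57BL/6J (SE 0.21, adjusted p = 0.497), and NZO/HlLtJ by -0.41 from CAST/EiJ (SE 0.22, adjusted p = 0.12), neither called.

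Of the 5 members, 2 were called between NZO/HlLtJ and C57BL/6J, both higher, where 35.5% of all genes tested were called, 17.9% higher and 17.6% lower. Between CAST/EiJ and C57BL/6J 3 were called, all higher, against 58.8% of all genes, 29.1% higher and 29.7% lower. Between NZO/HlLtJ and CAST/EiJ 3 were called, 1 higher and 2 lower, against 60.3% of all genes, 30.5% higher and 29.8% lower. As counts, these shares are near the background of strain differences, and it is the size of the Acta1 and Myh7 differences that the values above describe. The 3 strain comparisons share libraries, so they are not independent of each other.

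**Figure D3:**
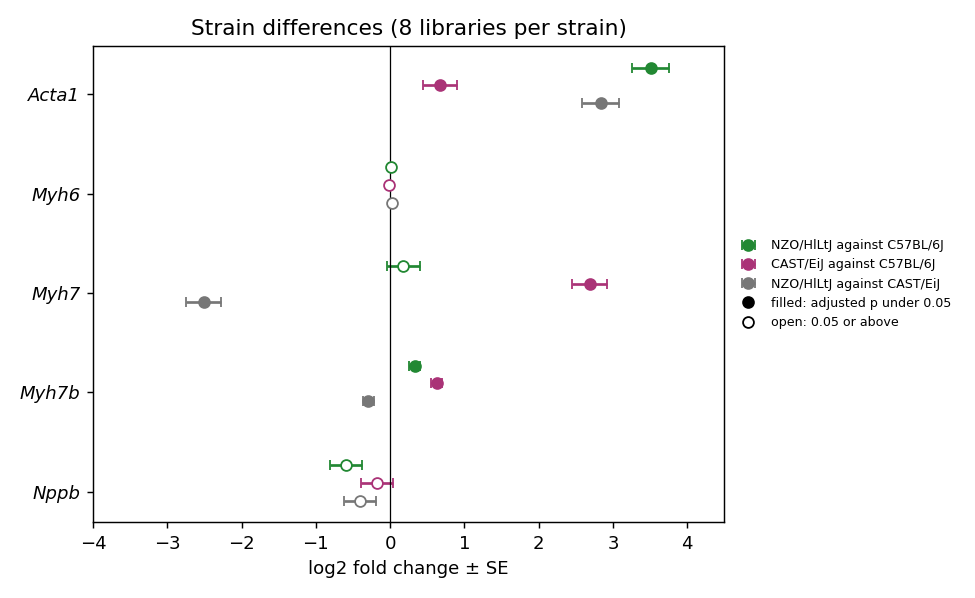
Log2 fold change with its SE for each gene and strain pair (8 libraries per strain), filled where the adjusted p is under 0.05. Acta1 is at 3.51 and 2.83 in the pairs with NZO/HlLtJ, Myh7 at 2.69 and -2.51 in the pairs with CAST/EiJ, and Myh6 at 0 within 0.03.

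The members also differed in how tightly they were held. Between the 2 libraries of a group the SD of log2 CPM was 0.468 for Acta1, 0.452 for Myh7 and 0.433 for Nppb, against 0.159 for Myh7b, 0.0631 for Myh6 and a median of 0.121 over 13046 genes at 1 CPM or more. Strain accounted for 91.9% of the variance of Acta1, 85.4% of Myh7, 70.8% of Myh7b, 25.3% of Nppb and 1.497% of Myh6, against a median of 55.0% over those genes. So Acta1 and Myh7 combined a wide spread within groups with a strain difference that was wider still, and Nppb had the spread with a strain difference that edgeR did not call and that passed under the other settings named above.

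The sample identifiers in the labels fall into 3 ranges, which the labels do not call batches, and NZO/HlLtJ has no library in the first range. Acta1 remained higher in NZO/HlLtJ than in C57BL/6J within the second and the third range, by 3.66 and 3.31 (log2 difference of means), without overlap. Myh7 was higher in CAST/EiJ than in C57BL/6J by 2.37, 3.55 and 2.75 within the 3 ranges, each without overlap. Myh7b in CAST/EiJ was higher by 0.54, 0.90 and 0.53, also without overlap. Nppb in NZO/HlLtJ against C57BL/6J was at -0.79 and -0.23 in the second and the third range, with overlap in both.

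With edgeR no diet difference of the 5 genes passed the threshold. With the sexes pooled, the libraries on 44% fat overlapped those on 10% fat in each strain for every member, that is in all 15 pairs of gene and strain. Within each sex, with 2 libraries per diet, the diets did not overlap for Myh6 and Myh7 in NZO/HlLtJ or for Nppb in C57BL/6J. In both sexes of these strains Myh6 and Nppb were lower on 44% fat and Myh7 was higher. Myh7 in CAST/EiJ did not overlap within a sex either, but was lower on 44% fat in females and higher in males. How many of all genes separate in this way was not counted. With 2 libraries against 2 such a separation carries little weight, and none of these diet differences was called by edgeR. No member was called by edgeR in C57BL/6J, where 0.0407% of all genes were called, or in CAST/EiJ or NZO/HlLtJ, where 0.0% were called in each. At an unadjusted p under 0.05 there were 0 members in C57BL/6J, 1 in CAST/EiJ (Myh7b) and 1 in NZO/HlLtJ (Myh6), and DESeq2 and limma-voom called 0 in each strain. With 4 libraries against 4 and spreads of this size, small diet changes of Acta1, Myh7 and Nppb were not detectable, as the standard errors of about 0.3 in log2 show.

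**Figure D4:**
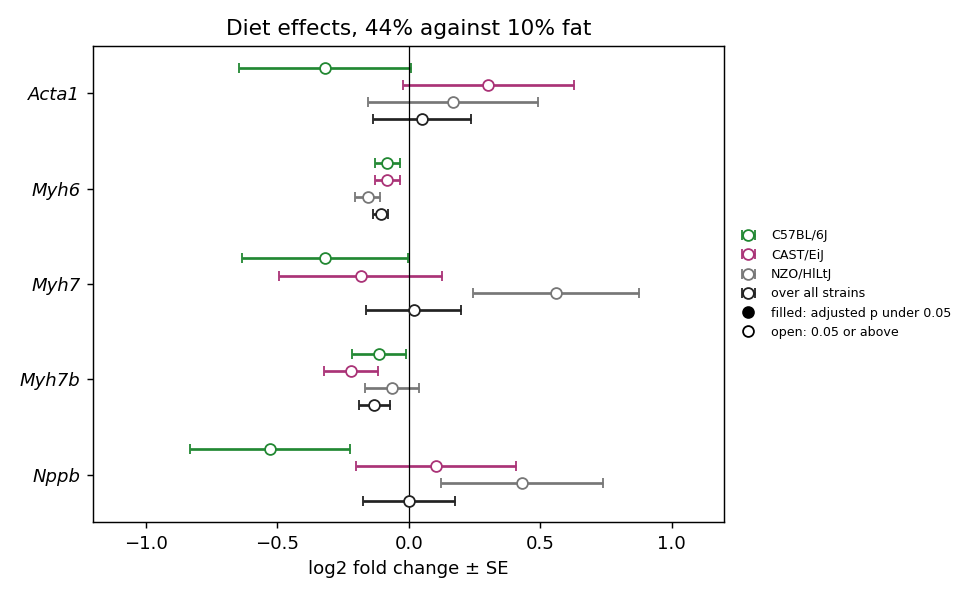
Log2 fold change of 44% against 10% fat with its SE for each gene, in each strain (4 libraries against 4) and over all strains (12 against 12), all open because no edgeR adjusted p is under 0.05. Nppb lies between -0.53 in C57BL/6J and 0.43 in NZO/HlLtJ, Myh7 between -0.32 and 0.56, and Myh6 is below 0 in all 3 strains.

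Myh6 had the same sign of the diet difference in all 3 strains. In NZO/HlLtJ its libraries were at 35250, 35500, 31110 and 30950 CPM on 10% fat and at 29970, 33000, 28420 and 27730 CPM on 44% fat (log2 change -0.16, SE 0.05, edgeR adjusted p = 0.594). In C57BL/6J and CAST/EiJ the change was -0.08 each (SE 0.05, adjusted p = 0.953 and 0.82). Over all strains it was -0.11 (SE 0.03, adjusted p = 0.172), where 0.157% of all genes and 0 of the 5 members were called by edgeR, with 2 members (Myh6 and Myh7b) at an unadjusted p under 0.05. DESeq2 called Myh6 there (log2 change -0.11, adjusted p = 0.0418) and limma-voom called no member.

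Myh7 in NZO/HlLtJ was at 107, 90.1, 132 and 249 CPM on 10% fat and at 148, 120.5, 305 and 301.5 CPM on 44% fat (log2 change 0.56, SE 0.31, edgeR adjusted p = 0.739). The 2 highest libraries were males on 44% fat. In C57BL/6J the Myh7 difference was -0.32 (SE 0.31) and in CAST/EiJ -0.18 (SE 0.31). Nppb, whose libraries in C57BL/6J and NZO/HlLtJ are listed above, differed by -0.53 (SE 0.30) in C57BL/6J, 0.10 (SE 0.30) in CAST/EiJ and 0.43 (SE 0.31) in NZO/HlLtJ (edgeR adjusted p = 0.954, 0.999 and 0.801).

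Acta1 was at 196, 140.1, 112 and 233 CPM on 10% fat in C57BL/6J and at 206.5, 172, 103 and 93.7 CPM on 44% fat (log2 change -0.32, SE 0.33). In CAST/EiJ it differed by 0.30 (SE 0.33) and in NZO/HlLtJ by 0.17 (SE 0.32), with edgeR adjusted p between 0.935 and 0.974 in the 3 strains. Myh7b in CAST/EiJ was at 181, 188, 139 and 161 CPM on 10% fat and at 146, 128, 152 and 146 CPM on 44% fat, the means being 167 and 143 CPM. It differed by -0.11 in C57BL/6J, -0.22 in CAST/EiJ and -0.06 in NZO/HlLtJ (SE 0.10 each), the smallest adjusted p being 0.748.

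The difference of the diet effect between strains was called by edgeR for no member in any pair of strains. It was 0.96 for Nppb (SE 0.43) and 0.88 for Myh7 (SE 0.44) between NZO/HlLtJ and C57BL/6J, with an adjusted p of 1 (edgeR). Nppb was the 1 member at an unadjusted p under 0.05 in that pair, where 0.00581% of all genes were called, and there was none in the other pairs, where 0.0% of all genes were called. DESeq2 and limma-voom called no member in the 3 pairs.

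Sex was called by edgeR for no member either. Myh7 in NZO/HlLtJ ran from 131.6 to 305 CPM in the 4 males and from 90.1 to 148 CPM in the 4 females (log2 change of males against females 1.06, SE 0.32, edgeR adjusted p = 0.471). Myh6 in the same hearts was at 29550 ± 1729 CPM in males and 33430 ± 2568 in females (SD, n = 4; -0.18, SE 0.05, adjusted p = 0.299). These 2 genes were at an unadjusted p under 0.05 in NZO/HlLtJ, where 0.134% of all genes were called, and none was in C57BL/6J (0.145% of all genes called) or CAST/EiJ (0.0872%).

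The sex effect on Myh7 differed between NZO/HlLtJ and CAST/EiJ by 1.39 (SE 0.44, edgeR adjusted p = 0.452) and between NZO/HlLtJ and C57BL/6J by 1.23 (SE 0.45, adjusted p = 1). In these differences 0.0% of all genes were called, and 2 and 3 members respectively were at an unadjusted p under 0.05, among them Myh6 and Myh7 in both. Nppb was higher in males by 0.42 over all strains (SE 0.18, adjusted p = 0.507), with the same sign in each strain, where 0.372% of all genes were called. DESeq2 and limma-voom called no member in any sex comparison.

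Other genes of the fetal programme, from a list of 16 of which 15 were tested, were split in direction between the strains. Between NZO/HlLtJ and C57BL/6J 4 were called higher and 5 lower, with a median log2 change of 0.08, and between CAST/EiJ and C57BL/6J 4 were higher and 4 lower, with a median of -0.06 (the median over all genes was 0.00 in both). That is 9 and 8 of 15, where 35.5% and 58.8% of all genes were called. Nppa, the A-type natriuretic peptide gene next to Nppb, was at 957 ± 388, 786 ± 254 and 1155 ± 323 CPM in C57BL/6J, CAST/EiJ and NZO/HlLtJ (SD, n = 8) and was not called in any pair. Ankrd1, a stretch-responsive titin-binding protein, was higher in NZO/HlLtJ than in C57BL/6J (515 ± 85.4 to 1285 ± 265 CPM, log2 change 1.31, edgeR adjusted p = 1.04e-06). Hcn4, the pacemaker channel, was also higher there (1.00, adjusted p = 1.75e-07), and Cacna1h, a T-type calcium channel, was lower (33.0 ± 9.43 to 5.37 ± 1.49 CPM, -2.62, adjusted p = 1.32e-07).

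In CAST/EiJ the slow skeletal troponin genes stood on the same side as Myh7. Tnnt1, slow skeletal troponin T, was at 14.5 ± 3.67 CPM against 7.29 ± 1.47 in C57BL/6J (SD, n = 8; log2 change 0.98, edgeR adjusted p = 2.64e-08). Tnni1, the slow troponin I of the fetal heart, was low everywhere, at 0.997 ± 0.432 CPM in CAST/EiJ, 0.316 ± 0.203 in C57BL/6J and 0.0830 ± 0.0652 in NZO/HlLtJ, and was lower in NZO/HlLtJ than in CAST/EiJ (-3.84, adjusted p = 4.11e-07). Cacna1h was lower in CAST/EiJ too (-2.13, adjusted p = 2.97e-07). Over all strains Tnnt1 was the 1 gene of the list that diet changed, being lower on 44% fat (-0.60, SE 0.08, adjusted p = 0.00364), and it was not called within any strain.

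Genes of thyroid hormone action, 12 listed and 11 tested, were read because that hormone sets the balance of Myh6 and Myh7. In CAST/EiJ against C57BL/6J 3 were called higher and 5 lower, where 58.8% of all genes were called, and in NZO/HlLtJ 2 higher and 2 lower, against 35.5%. Thrb, a nuclear thyroid hormone receptor, was at 41.8 ± 2.78 CPM in CAST/EiJ against 25.7 ± 1.30 in C57BL/6J (SD, n = 8; log2 change 0.70, edgeR adjusted p = 3.24e-12) and 23.9 ± 1.502 in NZO/HlLtJ. Thra, the main receptor of heart muscle, was lower in CAST/EiJ (52.5 ± 5.10 against 75.4 ± 4.89 CPM, -0.52, adjusted p = 1.21e-07), and so was Rxrg, a partner receptor (-0.75, adjusted p = 5.49e-10). Hr, a thyroid-responsive corepressor, exceeded its C57BL/6J level by 0.88 in CAST/EiJ and by 0.35 in NZO/HlLtJ on the log2 scale. The Thra count is uncertain, since Nr1d1 overlaps it on the other strand.

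Of 32 transcription regulators of these promoters, 4 were called higher and 2 lower in NZO/HlLtJ against C57BL/6J, and 11 higher and 8 lower in CAST/EiJ. That is 6 and 19 of 32, below and near the 35.5% and 58.8% of all genes called. Tead1, one of the TEAD factors that bind M-CAT elements, was higher than in C57BL/6J in both, by 0.27 in NZO/HlLtJ (378 ± 24.6 against 313 ± 19.1 CPM, edgeR adjusted p = 3.56e-06) and by 0.31 in CAST/EiJ (389 ± 16.2 CPM, adjusted p = 2.12e-07). Binding to the windows printed above was not tested. In NZO/HlLtJ Tead2 (0.42) and the T-box factor gene Tbx20 (0.31) were also higher and Tead4 (-0.32) lower. In CAST/EiJ Hdac9, a histone deacetylase that represses MEF2, was lower (-0.78), as was Mef2a (-0.25), and Smarca4, the Brg1 chromatin remodeller, was higher (0.26).

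In the natriuretic peptide pathway, 12 genes listed and 11 tested, 4 were called higher and 2 lower in NZO/HlLtJ against C57BL/6J, and 5 higher and 2 lower in CAST/EiJ, where 35.5% and 58.8% of all genes were called. Npr1, the receptor for both peptides, was lower in NZO/HlLtJ (log2 change -0.35, edgeR adjusted p = 6.67e-05), while Prkg1, the kinase downstream of it, was higher in NZO/HlLtJ (0.34) and in CAST/EiJ (0.84). Mme, the peptidase neprilysin that degrades the peptides, was higher in both (0.38 and 0.74). Of the proteases that cleave the precursors, Furin was higher in CAST/EiJ (0.56, adjusted p = 8.30e-08) and Corin lower (-0.45, adjusted p = 5.49e-07). Nppb itself was called by edgeR in neither strain, as given above.

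Among the other myosin heavy chains and actins, 16 listed and 12 tested, 2 were called higher and 3 lower in NZO/HlLtJ against C57BL/6J, and 2 higher and 4 lower in CAST/EiJ, again beside 35.5% and 58.8% of all genes. Acta2, smooth muscle alpha actin, was lower in both (-0.56 and -0.50 on the log2 scale), opposite to Acta1, and Actg2, smooth muscle gamma actin, was lower at a level near 1 CPM (-2.66 and -0.64). Myh10, a nonmuscle myosin, was higher in NZO/HlLtJ (0.34, edgeR adjusted p = 4.22e-07).

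Markers of other tissues were read beside these results, since in whole hearts fewer cells of a type and less RNA per cell cannot be told apart. The summed level of the 10 cardiomyocyte markers ran from 54230 to 57110 CPM in C57BL/6J, 51370 to 60300 in CAST/EiJ and 49820 to 58650 in NZO/HlLtJ, so the labelled tissue was plain in every library. Of 12 skeletal muscle markers 10 were in the annotation, and their sum ran from 52.3 to 72.1 CPM in C57BL/6J, from 19.3 to 31.1 in CAST/EiJ and from 76.8 to 128 in NZO/HlLtJ, where Acta1 was high. That sum was led by Myl1, Mybpc2 and Atp2a1, while the defining fast-fibre genes Myh4, Tnnt3 and Tnnc2 had medians under 0.1 CPM in every strain. Of the 8 skeletal markers tested, 3 were called higher and 2 lower in NZO/HlLtJ against C57BL/6J, where 17.9% of all genes were called higher and 17.6% lower, and their median log2 change was -0.39.

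Fibroblast markers were high in NZO/HlLtJ, as Acta1 was: all 8 were called higher there against C57BL/6J and against CAST/EiJ, where 17.9% and 30.5% of all genes were called higher. Their sum ran from 1512 to 1898 CPM in NZO/HlLtJ, 1074 to 1180 in C57BL/6J and 912 to 1257 in CAST/EiJ. Between the last 2 strains it did not follow Acta1, with a lower mean in CAST/EiJ (1033 ± 118.5 against 1127 ± 39.8 CPM, SD, n = 8). The sum of 7 smooth muscle markers ran from 1828 to 2032 CPM in CAST/EiJ, where Myh7 and Myh7b were high, against 1473 to 1691 in C57BL/6J and 1516 to 1732 in NZO/HlLtJ. Its members were split in CAST/EiJ against C57BL/6J, with Des and Cnn1 called higher (log2 change 0.37 and 0.56) and Acta2 and Actg2 lower (-0.50 and -0.64), where 29.1% of all genes were called higher and 29.7% lower. Most of the sum was Des, the intermediate filament desmin that heart muscle also makes, at 1585 ± 69.1 CPM in CAST/EiJ against 1223 ± 66.5 in C57BL/6J (SD, n = 8). The sum of 5 erythroid markers overlapped between the strains, at 2891 to 8767 CPM in C57BL/6J, 4314 to 21880 in CAST/EiJ and 4527 to 25720 in NZO/HlLtJ. The sum of 6 brown adipocyte markers was lower in NZO/HlLtJ (245 to 314.6 CPM) than in C57BL/6J (317.4 to 437.5 CPM) without overlap, and ran from 264 to 510.0 CPM in CAST/EiJ. In NZO/HlLtJ against C57BL/6J 2 of the 6 were called lower, where 17.6% of all genes were. The part of these cell types in the Acta1, Myh7 and Myh7b differences was not tested.

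How much atrium a heart sample holds can bear on Nppb and Nppa. The sum of 9 atrial markers ran from 848 to 2847 CPM in C57BL/6J, 873 to 2328 in CAST/EiJ and 1335 to 3418 in NZO/HlLtJ, overlapping throughout. In NZO/HlLtJ against C57BL/6J 1 of the 9 was called higher and none lower, where 17.9% of all genes were called higher, and against CAST/EiJ 4 were higher and 1 lower, where 30.5% and 29.8% were. Its part in the Nppb values was not tested.

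Across the 24 libraries, after each strain's mean was subtracted, the member most like another member was Myh7b with Myh6 (Pearson r = 0.59, Spearman rho = 0.63). Acta1 and Nppb reached 0.43 (rho = 0.36). Their r was 0.17 without the 2 libraries where Acta1 lay farthest from its median, and 0.41 without the 2 where Nppb did. Acta1 and Myh7 were at 0.16 and Myh6 and Myh7 at -0.26. These values describe libraries that share preparation and depth, and no test was made.

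Of 12069 genes compared the same way, those most like Nppb were Tnfrsf12a, the receptor of the cytokine TWEAK (r = 0.90, rho = 0.90), Ankrd23 (r = 0.81) and Ankrd1 (r = 0.73), the last 2 encoding ankyrin repeat proteins of the sarcomere. Most like Myh6 were Atp5o (0.87), Tnni3 (0.86) and Atp5c1 (0.85), which encode subunits of ATP synthase and cardiac troponin I. Most like Acta1 were Pdzd3 (0.83), Vps37c (0.77) and Cars (0.74). Most like Myh7 were Dtx2 (0.80), Cd63 (0.76) and Cpxm2 (0.75), and most like Myh7b were Chchd3 (0.83), Rnf31 (0.74) and Mybbp1a (0.73). No gene appeared in the lists of 2 members. These genes were picked as the highest of 12069 values, so part of the height of r comes from the choice. Without the 2 libraries where the member lay farthest from its median, r ran from 0.57 (Ankrd1) to 0.86 (Tnfrsf12a). Within single strains it ran from 0.33 (Atp5c1 in C57BL/6J) to 0.97 (Tnfrsf12a in C57BL/6J).

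Annotated genes within 50 kb of the members were read as positional neighbours. Of 3 tested neighbours of Acta1, Ccsap was higher than in C57BL/6J in both other strains (0.94 in NZO/HlLtJ and 1.46 in CAST/EiJ on the log2 scale, edgeR adjusted p = 0.000385 and 8.61e-07), and Nup133 was lower in both (-0.39 and -0.53). The predicted gene Gm20388, which spans Acta1 on the other strand, was higher in NZO/HlLtJ (0.98, adjusted p = 0.038). It is not given whether the counting used strand, so reads of Gm20388 and Acta1 may not have been told apart. With Gm20388 counted, 3 of the 3 neighbours were called in NZO/HlLtJ and 2 in CAST/EiJ, where 35.5% and 58.8% of all genes were called. Of 5 tested neighbours of Myh7 none was higher in CAST/EiJ than in C57BL/6J, the log2 changes running from -1.25 to -0.01. Called lower were 3 (Efs, Ngdn and Mhrt), where 29.7% of all genes were called lower. The 2 ends of that range, Cmtm5 at -1.25 and Myh6 at -0.01, were not called. Nppa, the nearest relative of Nppb, was not called in any pair.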

How the data were processed

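RNA of whole mouse hearts was sequenced as 100-base read pairs from polyadenylated RNA, per the labels' protocols. The authors deposited expected counts, that is read counts estimated for each gene, and 19.3% of them were fractional at a tolerance of 1e-06. The submitters' processing notes name GRCm38 and DESeq2 and assign no role. Aligner, counting program and strand setting: not given in the sources used here. Library totals ranged from 30205073 to 52254058. A deposited variance-stabilized matrix was not used. Groups came from the labels; replicate numbers follow accession order and pair nothing.

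Counts were rounded and fitted with edgeR 4.0.16 (R 4.3.3): filterByExpr over the 12 groups (minimum count 10, minimum total 15), TMM factors from 0.954 to 1.06, and 1 robust quasi-likelihood model with a mean per group over all 24 libraries. The 17 contrasts covered strain, diet, sex and their differences between strains, groups weighted equally, with Benjamini-Hochberg adjustment over 17203 genes in each and a threshold of 0.05. The script was tested on simulated counts. Per-kilobase levels used GENCODE M21 exon lengths, with all annotated exons of a gene joined. Alternatives were RLE, upper-quartile or no scaling, no filter, DESeq2 1.42.0, limma-voom (limma 3.58.1), the identifier range as a block, only the strains compared, and each library left out.

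The members and the 15 gene lists were chosen with earlier results of these data known. Named were the 5 members in every contrast and, from each list, up to 4 called genes of smallest adjusted p (with none called, up to 2). For each member the 3 genes of highest Pearson r with a mean of at least 1 CPM were named, and neighbours within 50 kb. Nppa, Actc1, Acta2, Actg2 and Mhrt, where outside that rule, were named after their values were seen.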

Additional observations from a re-analysis of the deposited data

Results flagged for a closer look

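In 2 of 45 sets of libraries examined, 1 library stood far from the rest, and chance alone flags about 1 in 20. Both cases were the second library of the NZO/HlLtJ males on 44% fat. Its Acta1 level was 3433 CPM, with the next of the 8 NZO/HlLtJ libraries at 1845 CPM and the lowest at 1094 CPM, a gap of 0.679 of the range against a limit of 0.526. Its Nppb level was 90.0 CPM, with the next at 58.5 CPM and the lowest at 35.1 CPM, a gap of 0.573 of the range. Its Myh6 level of 27730 CPM was the lowest of the NZO/HlLtJ libraries, and its Myh7 level of 301.5 CPM was close to that of its partner (305 CPM). Without this library the Nppb difference between NZO/HlLtJ and C57BL/6J was -0.70 on the log2 scale with an edgeR adjusted p of 0.0321, past the threshold that it missed with the library (-0.59, adjusted p = 0.0505). What sets this library apart was not tested.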

How the results depend on the processing

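The number of members called in each contrast stayed within 1.5 times its value under all alternatives, with 1 exception: over all strains DESeq2 called 1 member for diet (Myh6) where edgeR called 0. The cause was not tested. The strain calls of Acta1 in NZO/HlLtJ, of Myh7 in CAST/EiJ and of Myh7b in all pairs kept direction and threshold under the 8 other settings and without each library. Acta1 between CAST/EiJ and C57BL/6J lost its call without any of 7 libraries (log2 change 0.51 to 0.83 over all 24 omissions), and Nppb between NZO/HlLtJ and C57BL/6J gained one under 4 settings and without any of 8 libraries (-0.70 to -0.46). No paired analysis was possible because replicate numbers follow accession order and pair no samples.

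Uncalled differences near 0 changed sign. In Myh6 the difference of the diet effect between CAST/EiJ and C57BL/6J was 0.001, and -0.008 with RLE scaling, -0.008 with DESeq2, -0.032 with the identifier range as a block and -0.001 with only these strains. Nppb for diet over all strains was -0.007 with upper-quartile scaling, -0.013 with library totals and -0.037 with limma-voom, and Myh7 was -0.001 with the block. With library totals Myh6 in CAST/EiJ against C57BL/6J was 0.062, its sex difference between these strains -0.021 (also -0.021 with the block), and the sex difference of Myh7b between NZO/HlLtJ and CAST/EiJ 0.005. The sex difference of Nppb between NZO/HlLtJ and C57BL/6J was -0.004 with limma-voom. Leaving out 1 library at a time changed the sign of 25 uncalled log2 values. Among strain differences the ranges were Myh6 in NZO/HlLtJ against C57BL/6J -0.005 to 0.034, Myh6 in CAST/EiJ against C57BL/6J -0.033 to 0.005. Among diet effects the ranges were Myh7 in C57BL/6J -0.630 to 0.150, Acta1 in CAST/EiJ -0.018 to 0.526, Nppb in CAST/EiJ -0.188 to 0.312, Acta1 in NZO/HlLtJ -0.160 to 0.393, Myh7b in NZO/HlLtJ -0.174 to 0.065, Acta1 over all strains -0.059 to 0.154, Myh7 over all strains -0.084 to 0.176, Nppb over all strains -0.096 to 0.071. Among differences of the diet effect the ranges were Myh7b in NZO/HlLtJ against C57BL/6J -0.062 to 0.177, Myh6 in CAST/EiJ against C57BL/6J -0.035 to 0.041, Myh7 in CAST/EiJ against C57BL/6J -0.332 to 0.448, Acta1 in NZO/HlLtJ against CAST/EiJ -0.465 to 0.185. Among sex differences the ranges were Myh6 in C57BL/6J -0.009 to 0.068, Myh7 in C57BL/6J -0.634 to 0.146, Myh7b in C57BL/6J -0.090 to 0.052, Acta1 in CAST/EiJ -0.044 to 0.499. Among differences of the sex effect the ranges were Nppb in NZO/HlLtJ against C57BL/6J -0.185 to 0.260, Myh6 in CAST/EiJ against C57BL/6J -0.027 to 0.050, Myh7 in CAST/EiJ against C57BL/6J -0.470 to 0.310, Nppb in CAST/EiJ against C57BL/6J -0.106 to 0.446, Acta1 in NZO/HlLtJ against CAST/EiJ -0.023 to 0.627, Myh7b in NZO/HlLtJ against CAST/EiJ -0.179 to 0.060, Nppb in NZO/HlLtJ against CAST/EiJ -0.376 to 0.176. The lowest count of any member in a library was 1345 (Nppb), so counting error was small beside the spread between libraries.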
